A study of Rattus norvegicus with 12 samples.

Results

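The miRNAs described here are the members of the miR-200 family together with miR-203 and miR-205, measured in the plasma of pregnant and non-pregnant rats. They were taken by name from the panel of an nCounter assay, which counts miRNAs by hybridisation to coloured barcodes without amplification. The rule used names alone, but the group was picked for description with earlier results of these data known. All 7 names sought (rno-miR-200a, rno-miR-200b, rno-miR-200c, rno-miR-141, rno-miR-429, rno-miR-203 and rno-miR-205, written below without the prefix for rat) had 1 probe each among the 420 endogenous miRNA probes. The study compared 6 Wistar females at embryonic day E14.5 (pregnant group, aged 103 to 373 days) with 6 non-pregnant Wistar females (control group, aged 110 to 269 days). The labels name no genetic change and no agent for either group, and the cycle stage of the control rats is not given in the sources used here. Plasma was cleared of cells and platelets by centrifugation, and a plant miRNA was spiked into each sample before RNA was prepared. Each rat gave 1 plasma sample and stands as 1 replicate.

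The miR-200 family is made from a pair of gene clusters and is the best known miRNA family of epithelial cells. Its members hold down Zeb1 and Zeb2, transcription factors that repress E-cadherin, and so help to keep epithelial cells from turning mesenchymal. miR-203 is abundant in the skin, where it limits the growth of keratinocytes by targeting p63, and miR-205 is typical of basal cells of stratified epithelia. In plasma, which holds no cells, such miRNAs are carried by vesicles, proteins and cell debris shed from tissue, so that a level in plasma does not tell which tissue released it. A smaller number of releasing cells and less miRNA from each cell cannot be told apart.

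The mature miRNA is read by its seed, bases 2 to 8 from the 5′ end, which pairs with the target mRNA. The sequences of 4 of the 7 members are shown so that the seeds can be set side by side, from RefSeq on the GRCr8 assembly, 5′ to 3′, with the seed in capitals. The codeset names its probes without an arm. In the older naming that form stood for the main product of the hairpin. This is the 3p arm for miR-141, miR-200c and miR-203, and the 3p sequence is given for them on that reading. The sequence of miR-205 is given under its name without an arm.
rno-miR-141-3p: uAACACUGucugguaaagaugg
rno-miR-200c-3p: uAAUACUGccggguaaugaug
rno-miR-203a-3p: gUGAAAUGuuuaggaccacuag
rno-miR-205: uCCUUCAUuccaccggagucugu

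miR-141 and miR-200c had the same base at 17 of the 21 positions compared. Their seeds were equal at 6 of 7 bases and differed by C4U, where the first letter is the base of miR-141, the second that of miR-200c, and positions count from the 5′ end. That single base separates the seed groups of the family: miR-200a is known to share its seed with miR-141, and miR-200b and miR-429 share theirs with miR-200c. miR-203 and miR-205 had unrelated seeds and are grouped with the family only because epithelia express them.

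The hairpins lie at 4 loci in GRCr8. Mir141 and Mir200c sit 346 bases apart on the minus strand of chromosome 4, with the mature miR-141-3p at chr4:159209540-159209561 and the mature miR-200c-3p at chr4:159209969-159209989. They overlap no protein-coding gene, and the nearest one is Phb2. Mir429, Mir200a and Mir200b lie within 1908 bases of each other on the minus strand of chromosome 5, inside the span of the protein-coding gene Ttll10 and of the lncRNA LOC106182250. Whether that part of those genes is exon or intron was not examined. Mir203 is on the plus strand of chromosome 6, with the mature sequence at chr6:137020756-137020777, and Mir205 is on the minus strand of chromosome 13, with the mature sequence at chr13:107564588-107564610. Both lie outside protein-coding genes.

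The total endogenous count per rat was low, 6969 to 10176 in the control group and 5163 to 30301 in the pregnant group. Pregnant replicates 5 and 6 had by far the highest totals, 24010 and 30301. A background was set in each rat from the 4 exogenous probes for which no spike-in was added. Their mean was 7.25 to 15.75 counts, and their mean + 2 SD was 17.9 to 49.1 counts. Only 20 of the 420 endogenous probes were above mean + 2 SD in all 12 rats.

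rno-miR-203 was the most abundant member, and it was above this background in more rats than any other member. Its mean was 55.75 ± 56.9 counts (SD, n = 12), which placed it 35th among the 420 endogenous probes. It was above mean + 1 SD in all 6 control rats and 4 pregnant rats, and above mean + 2 SD in 3 control and 4 pregnant rats. It was higher than the next member, miR-429, in 11 of the 12 rats.

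The other members were near the background. miR-429 had 21.75 ± 10.9 counts (SD, n = 12) and was above mean + 2 SD in 3 rats. miR-200a had 18.25 ± 8.30 counts and was above mean + 2 SD in 1 rat, although both were above the plain exogenous mean in all 12 rats. miR-200c, with a median of 15 counts over the 12 rats, was above the exogenous mean in 8 rats, and miR-141, with 12.7 ± 9.18 counts, in 7 rats. miR-200b, with 8 ± 4.69 counts, was above it in 1 rat. miR-205, with 3.08 ± 1.98 counts, was above it in none of the 12 rats and ranked 379th of 420. miR-205 was therefore not detectable against this background. The 1 rat in which miR-200b was above the mean was pregnant replicate 5, with 18 counts, and with the 4 mRNA probes as the background miR-200b was above their mean in 3 rats.

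The order of the middle members was not settled by the rats. miR-429 was above miR-200a in 9 of 12 rats, miR-200a was above miR-200c in only 6, and miR-200c was above miR-141 in only 6. At the bottom, miR-141 was above miR-200b in 9 rats, as many as for miR-429 over miR-200a. miR-200b was above miR-205 in 10 rats. Each probe binds and counts with its own efficiency, so the order is one of raw probe counts and not of molecules.

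**Figure D1:**
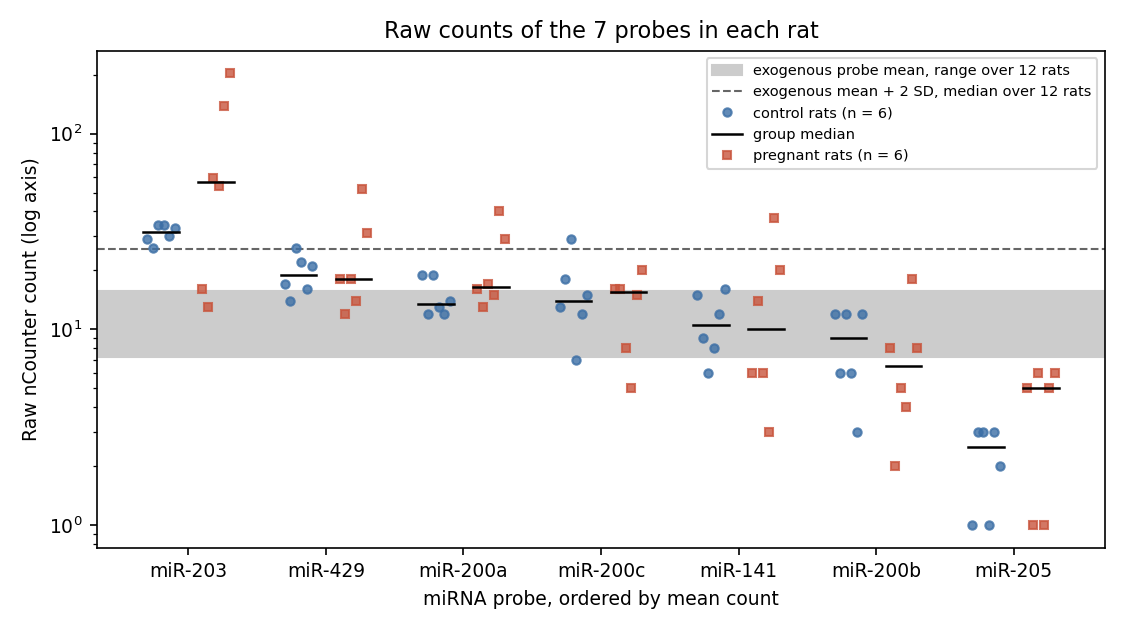
Raw nCounter counts (log axis) of the 7 probes in each of the 6 control and 6 pregnant rats, with horizontal bars at the group medians. miR-203 has the highest counts, with 4 pregnant rats above and 2 below every control rat, while most counts of the other probes lie within or close to the grey band, the range of the exogenous mean over the 12 rats (7.25 to 15.75 counts).

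miR-203 was spread far more widely among the pregnant rats than among the controls. The control rats had 26 to 34 counts, with a median of 31.5. The 6 pregnant rats had 16, 13, 59, 54, 138 and 203 counts in the order of their replicate numbers, with a median of 56.5. Thus 4 pregnant rats were above every control rat and the other 2, replicates 1 and 2, were below every control rat.

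The same pattern held after scaling. In CPM, counts relative to the library size after scaling by the TMM method, miR-203 was 3379 ± 436 in controls (SD, n = 6) and 7097 ± 4981 in pregnant rats (SD, n = 6). The lowest and highest pregnant rats were 1637 and 14857 CPM, a 9.08-fold range, against a 1.41-fold range in controls. The SD of the pregnant group was 11.4 times that of the control group, the highest such ratio among the 187 probes whose count reached 10 in 6 rats or more. The median ratio over those probes was 1.50, and 127 of them had the larger SD in the pregnant group. These ratios are a description, and no test was made of them. They hold for TMM scaling only and were not worked out with total count in its place. The TMM factor was 0.479 in pregnant replicate 6, the highest rat, and 1.96 in pregnant replicate 2, the lowest. The size of the range and of the SD ratio therefore depends on the scaling.

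The mean of miR-203 was higher in pregnant rats, by 1.08 on the log2 scale (SE 0.438, 95% interval 0.15 to 2.02), with an unadjusted p = 0.0263 by edgeR's quasi-likelihood test. It did not pass after adjustment over the 187 probes (edgeR adjusted p = 0.670). A two-sided exact permutation test over the 924 ways to assign the rats gave a difference of 0.66 in mean log2 CPM and p = 0.216. The edgeR value rested on the rats with the highest totals: without pregnant replicate 6 it was 0.66 (edgeR unadjusted p = 0.114), and without pregnant replicates 5 and 6 it was 0.36 (edgeR unadjusted p = 0.370, adjusted p = 0.719). Without pregnant replicate 2, one of the low rats, it was 1.25 (edgeR unadjusted p = 0.00392, adjusted p = 0.325). Scaled by total count instead of TMM it was 0.31 (edgeR unadjusted p = 0.449).

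**Figure D2:**
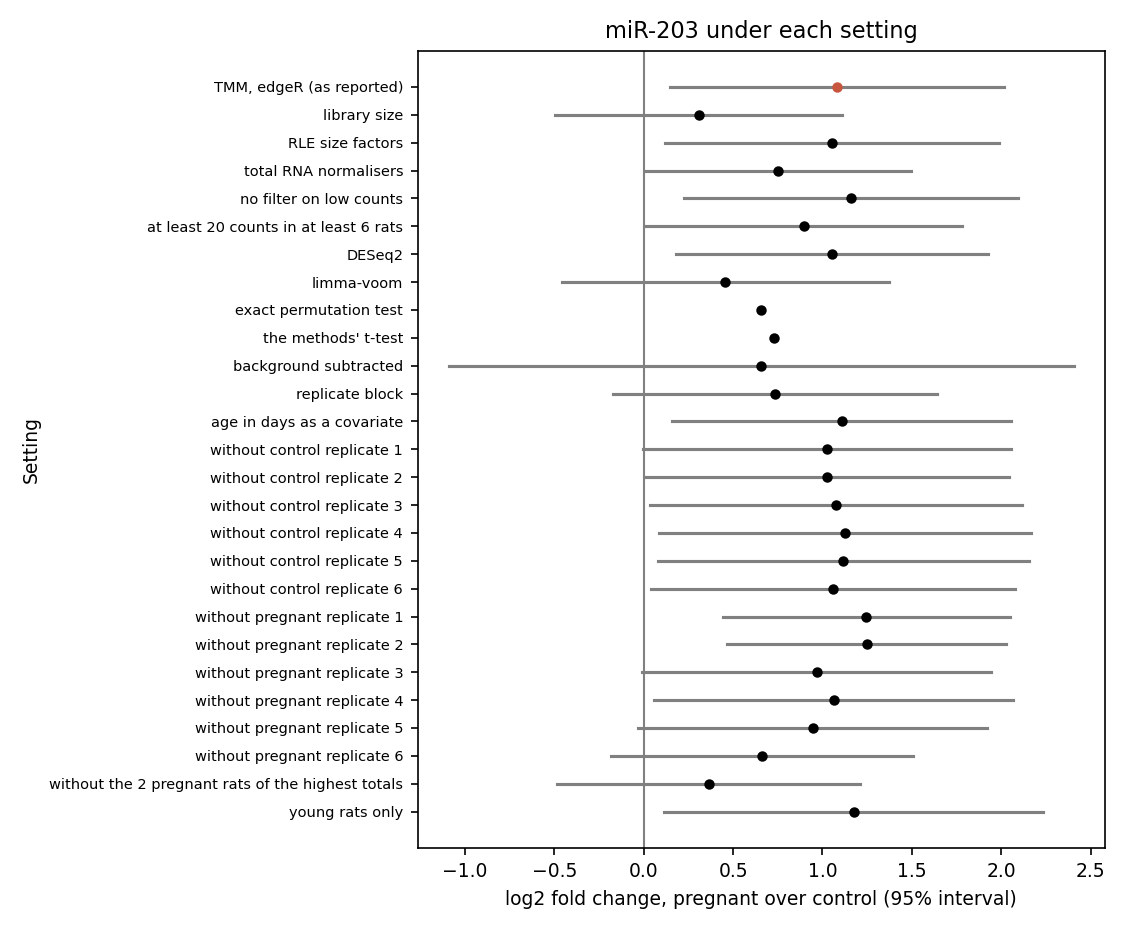
log2 fold change of miR-203, pregnant over control, under each way of scaling, filtering, testing or leaving out rats, with lines for 95% intervals where the test gives one and the red point for the value as reported. All values lie above 0, from 0.31 to 1.25, and 9 of the 25 intervals shown include 0.

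rno-miR-200a, a member of the miR-141 seed group, was the other member under an unadjusted p of 0.05. The control rats had 12 to 19 counts (median 13.5) and the pregnant rats 13 to 40 counts (median 16.5). In CPM, miR-200a was 1592 ± 207 in controls (SD, n = 6) and 2085 ± 387 in pregnant rats (SD, n = 6). All 6 pregnant rats were above the control mean in CPM and 4 were above every control rat, so the groups overlapped in the remaining 2 rats. In raw counts 2 pregnant rats were above every control rat. These were replicates 5 and 6, the rats with the highest totals.

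The difference in miR-200a was smaller than that in miR-203 with TMM and edgeR, though no test compared the 2 members. It was 0.40 on the log2 scale (SE 0.173, 95% interval 0.03 to 0.77), with an unadjusted p = 0.0358 by edgeR and an edgeR adjusted p = 0.670. The two-sided exact permutation test gave 0.34 and p = 0.0152, which did not pass after adjustment over the 187 probes (adjusted p = 1, exact permutation test). In that test 3.21% of all probes were under 0.05 before adjustment, in either direction. Its sign depended on the scaling: with total count in place of TMM the value was -0.09 (edgeR unadjusted p = 0.818). Without pregnant replicates 5 and 6 it was 0.20 (edgeR unadjusted p = 0.419). After subtraction of the exogenous mean, with results under 1 count set to 1, it was 1.59 (limma unadjusted p = 0.00595, adjusted p = 0.795). That setting used limma on log2 values in place of edgeR. There miR-203 was at 0.66 (limma unadjusted p = 0.432), below miR-200a, so the order of the 2 members depended on the setting. The 95% interval of miR-200a included 0 in 14 of the 25 settings that gave one. With total RNA normalisers its edgeR unadjusted p was 0.436, and with DESeq2 its unadjusted p was 0.113. Leaving out any 1 of 7 rats took its edgeR unadjusted p over 0.05, against 4 rats for miR-203. The raw counts of miR-200a exceeded mean + 2 SD of the exogenous probes in 1 rat, so the fold change was measured close to the background.

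miR-429, which shares the chromosome 5 cluster with miR-200a, had an interval that included 0. It had 14 to 26 counts in controls (median 19) and 12 to 52 in pregnant rats (median 18). The pregnant rats lay on both sides of the controls, with replicate 5 highest and replicate 2 lowest of all 12. The log2 fold change was 0.14 (95% interval -0.32 to 0.61, edgeR adjusted p = 0.944), and it turned to -0.39 with total count in place of TMM. The interval also includes the 0.40 of miR-200a, so these 2 members were not told apart. miR-200b, the remaining product of that cluster, had 3 to 12 counts in controls and 2 to 18 in pregnant rats. It was below the filter, and the fit on all 420 probes gave -0.26 (95% interval -1.06 to 0.54, edgeR adjusted p = 0.996).

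The products of the chromosome 4 cluster also overlapped between groups. miR-200c had 7 to 29 counts in controls (median 14) and 5 to 20 in pregnant rats (median 15.5), with a log2 fold change of -0.34 (95% interval -0.98 to 0.31, edgeR adjusted p = 0.797). miR-141 had 6 to 16 counts in controls (median 10.5) and 3 to 37 in pregnant rats (median 10), with a log2 fold change of 0.20 (95% interval -0.60 to 0.99, edgeR adjusted p = 0.967), which turned to -0.37 with total count in place of TMM. The interval of miR-141 includes a difference as large as that of miR-200a in either direction, and that of miR-200c includes one only in the direction of lower levels in pregnant rats.

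miR-205 had 1 to 3 counts in controls (median 2.5) and 1 to 6 in pregnant rats (median 5). The fit on all 420 probes gave 0.78 (95% interval -0.14 to 1.71, edgeR adjusted p = 0.835). Since these counts were under the exogenous mean in every rat, the value describes the probe and gives no level of miR-205.

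**Figure D3:**
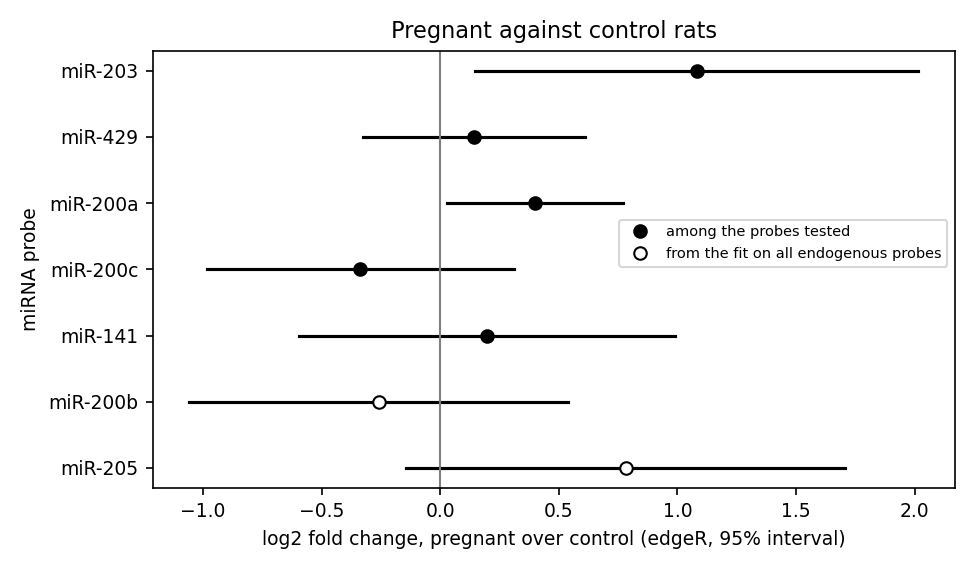
log2 fold change of each probe, pregnant over control (edgeR, TMM, 6 rats per group), with 95% intervals that are not adjusted for the number of probes. The intervals of miR-203 (0.15 to 2.02) and miR-200a (0.03 to 0.77) lie above 0 and those of the other 5 probes include it, with open points for the 2 probes read from the fit on all 420 probes.

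Of the 5 members among the 187 probes tested, 0 passed an adjusted p of 0.05 in edgeR, where the share of all probes called was 0%. Before adjustment, 2 of the 5 were higher in pregnant rats (miR-203 and miR-200a), where the share of all probes was 5.35%, and 0 were lower, where the share was 0.535%. The median log2 fold change of the 5 was 0.20 against 0.05 over all 187. Positive values were found for 4 of the 5 members and for 104 of the 187 probes. For none of the members were the 2 groups free of overlap in CPM, and the share of all probes without overlap was also 0%. Scaling by total count moved the median over all 187 probes to -0.33, and the unadjusted calls then split into 1 higher and 12 lower instead of 10 higher and 1 lower.

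As a share of all endogenous counts the 7 miRNAs together overlapped between the groups. They summed to 88 to 129 counts in controls, or 1.16% ± 0.203 of the total (SD, n = 6), and to 71 to 317 counts in pregnant rats, or 1.09% ± 0.188 (SD, n = 6). The makeup of that sum varied more among the pregnant rats. miR-203 gave 26.4% to 37.4% of it in controls (median 29.4%) and 18.3% to 64.0% in pregnant rats (median 47.4%). For comparison, 7 probes at the exogenous mean would give much of the sum: the observed sum was 1.08 to 1.79 times that amount in controls and 0.991 to 4.12 times in pregnant rats. The pregnant rats at the upper end were replicates 5 and 6, at 3.49 and 4.12 times.

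The members differed in how closely their raw count followed the total of the rat. The share of all probes that followed the total is not given here. For miR-203, Pearson's r of log2 count and log2 endogenous total over the 12 rats was 0.93 (permutation p = 0.00012, 0.00084 after Benjamini-Hochberg adjustment over the 7 members), and Spearman's rho was 0.78 (permutation p = 0.00387, adjusted 0.0271). Without replicates 5 and 6 of the pregnant group, the 2 rats farthest from the median total, r was 0.73. It was 0.96 within the pregnant group and -0.19 within the control group, where totals varied little. The lowest counts of miR-203 thus came from pregnant rats with totals of 8723 and 5163, the former within the range of the controls.

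For miR-200a r was 0.87 (permutation p = 0.00158, adjusted 0.00553) and rho was 0.71 (permutation p = 0.0133, adjusted 0.0467), with r of 0.54 without the same 2 rats. For miR-429 r was 0.78 (permutation p = 0.0046, adjusted 0.0107) and rho was 0.59 (permutation p = 0.0488, adjusted 0.0853), with r of 0.40 without them, so that for miR-429 much of the relation rested on those rats. For miR-205, miR-200b, miR-141 and miR-200c r was 0.61, 0.55, 0.39 and 0.15, with rho of 0.60, 0.44, 0.08 and 0.22. None of these passed after adjustment (permutation p adjusted 0.0531 or higher for r). For rho, miR-205 had the same adjusted permutation p as miR-429, 0.0853, so these 2 members were not set apart by it. Each count is part of the total it was compared with, but only a small part of it. The comparison was added after the counts had been seen.

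Set against the background instead, the order was different. Pearson's r of log2 count with log2 exogenous mean over the 12 rats was 0.75 for miR-200b and 0.75 for miR-200c, between 0.32 and 0.46 for miR-429, miR-200a, miR-141 and miR-205, and 0.07 for miR-203. These are descriptions over rats that share a lane for both measures. The 2 members that moved most closely with the exogenous probes were thus products of different clusters, and miR-203 was the one that moved least with them.

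**Figure D4:**
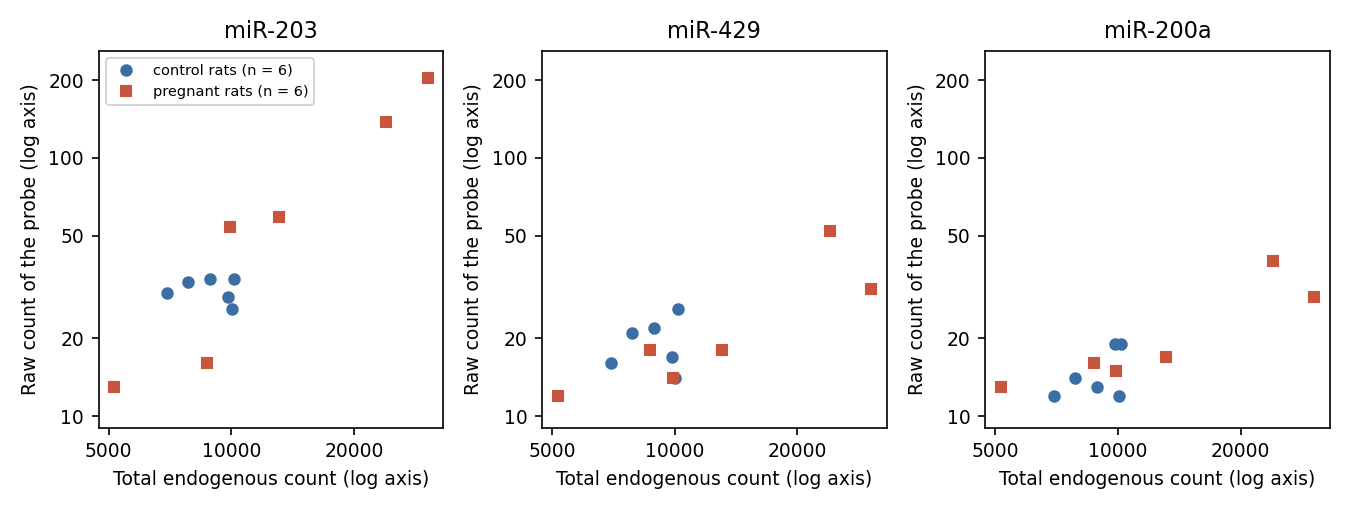
Raw counts of miR-203, miR-429 and miR-200a (log axis) against the total endogenous count (log axis) in each of the 12 rats. All 3 are highest in the 2 pregnant rats with totals of 24010 and 30301, and only miR-203 spreads widely, from 13 to 59 counts, among the other pregnant rats.

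Between members, 10 pairs of the 5 tested miRNAs were compared by log2 CPM over the 12 rats, and 0 passed after adjustment. Both groups were pooled, so any difference between the groups enters r, and r within a group was not worked out. The highest r was between miR-200a and miR-203, 0.65 (permutation p = 0.0212, adjusted 0.191), with rho of 0.61 (permutation p = 0.0404, adjusted 0.142) and r of 0.60 without the 2 rats farthest from the median of miR-200a. It turned to -0.47 with total count in place of TMM. The cluster partners miR-200a and miR-429 had r of 0.59 (permutation p = 0.0417, adjusted 0.191) and rho of 0.41 (permutation p = 0.195, adjusted 0.436), and r fell to 0.28 without 2 rats. The cluster partners miR-141 and miR-200c had r of 0.09 (permutation p = 0.776, adjusted 0.835) and rho of 0.11.

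The probes most alike to each member, by r of log2 CPM over the 12 rats, differed between members. They are named as a description, and no test was made of them. Both groups were pooled here too. For miR-203 they were miR-191 (0.94), miR-27b (0.92), miR-215 (0.89), miR-146a (0.89) and miR-301a (0.89). Of these, miR-27b was above mean + 2 SD of the exogenous probes in all 12 rats and miR-146a, a miRNA of inflammatory signalling, in 10. miR-191 was above it in 8 rats, miR-215 in 7 and miR-301a in 2. For miR-200a they were miR-144, which is made in red cell precursors (0.80), miR-450a (0.73), miR-215 (0.69), miR-30d (0.69) and miR-192 (0.67). In the same order, these were above mean + 2 SD in 2, 12, 7, 2 and 5 rats. All but miR-30d were, like miR-200a, higher in pregnant rats at an edgeR unadjusted p under 0.05, where the share of all probes was 5.35%. For miR-429 they were the red cell miRNA miR-451 (0.77), miR-93 (0.76), miR-101b (0.74), miR-215 (0.74) and the muscle miRNA miR-1 (0.74). In the same order, these were above mean + 2 SD in 12, 8, 0, 7 and 10 rats.

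The probes most alike to miR-200c and miR-141 were not among those named for the other members. For miR-200c the nearest were miR-876 (0.81), miR-202 (0.71), miR-3563-3p (0.64), miR-139-3p (0.64) and miR-291a-3p (0.62), and each of these was above mean + 2 SD in 0 rats. For miR-141 they were let-7i (0.61), miR-30b-5p (0.59), miR-874 (0.56), miR-350 (0.53) and miR-295 (0.51). In the same order, these were above mean + 2 SD in 0, 6, 0, 0 and 1 rats. Scaling by total count kept 3 of the 5 neighbours of miR-203, 4 of those of miR-200c and 5 of those of miR-141, and 0 of those of miR-200a or miR-429.

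Other miRNAs associated with epithelia were set beside these members. Of 11 sought by name, all 11 had a probe and 4 passed the count filter; 0 were called after adjustment, and 2 were higher in pregnant rats before it, against 5.35% of all probes. These were miR-215, by 2.35 on the log2 scale (SE 0.831, edgeR adjusted p = 0.670), and miR-192, by 1.01 (SE 0.433, edgeR adjusted p = 0.670), both best known from intestine, liver and kidney. miR-215 had 7 to 64 counts in controls and 6 to 695 in pregnant rats, so that its groups overlapped as those of miR-203 did. The others that passed were miR-449a, with a log2 fold change of -0.01, and miR-96, with -0.11. The median over the 4 was 0.50, against 0.05 over all probes tested. The 7 below the filter were read from the fit on all 420 probes, where they lay on both sides of 0: miR-183 was at 1.68, miR-194 at 0.40, miR-34c at 0.37, miR-375 at 0.32, miR-34b at -0.15, miR-31 at -0.32 and miR-182 at -0.53. Of these only miR-183, which had 2 to 4 counts in controls and 4 to 24 in pregnant rats, was under an unadjusted 0.05 (edgeR unadjusted p = 0.00125, adjusted p = 0.524). It was above mean + 2 SD of the exogenous probes in 0 rats. Its control counts were under the lowest exogenous mean of any rat, 7.25, so its fold change was measured at the background. miR-182, which comes from the same cluster as miR-183 and is likewise known from sensory epithelia, had 1 to 6 counts in controls and 1 to 5 in pregnant rats.

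The summed CPM of miRNAs that mark other sources of plasma RNA varied widely among rats. The red cell probes miR-451 and miR-144 summed to 17593 to 85094 CPM in controls and 6924 to 184963 in pregnant rats, and both probes had a positive fold change. Liver miR-122 was 11513 to 310776 CPM in controls and 8435 to 721429 in pregnant rats. The 3 leukocyte probes summed to 17793 to 77886 CPM and 9190 to 142637 CPM, and the 2 probes of platelets and endothelium to 6407 to 16599 CPM and 3147 to 61549 CPM, in controls and pregnant rats. For muscle the 6 probes summed to 10580 to 23900 CPM and 8637 to 26928 CPM, with heart miR-208 under 3 counts on average, and for stromal cells the 5 probes summed to 6507 to 35105 CPM and 6137 to 41789 CPM. None of these probes passed after adjustment in edgeR. Before it, 1 was under 0.05, miR-144, which was higher in pregnant rats by 1.31 on the log2 scale (SE 0.511, edgeR unadjusted p = 0.0216, adjusted p = 0.670) and was the probe most alike to miR-200a. Their part in the levels of miR-203 and miR-200a was not tested.

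Some hairpins of the group have an annotated miRNA on the opposite strand, whose probes offer a look at the same place in the genome. Mir3545 overlaps Mir203, Mir3548 overlaps Mir200a and Mir3575 overlaps Mir200c. The 2 probes of miR-3545 had 1 to 8 counts in controls and 2 to 12 in pregnant rats, and neither followed the wide spread of miR-203. miR-3548 had 1 to 5 counts in controls and 1 to 6 in pregnant rats. miR-3575 had 11 to 25 counts in controls and 9 to 31 in pregnant rats. It passed the count filter, with a log2 fold change of -0.35 (edgeR unadjusted p = 0.136, adjusted p = 0.732). These opposite-strand probes were above mean + 2 SD of the exogenous probes in at most 1 rat each.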

How the data were processed

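Plasma miRNA of 12 rats (6 pregnant, 6 control, grouped by the sample labels) was read on the nCounter with a rat miRNA codeset. The authors deposited raw counts per probe, which had been neither background corrected nor normalised. All columns were used, and no pair of rats shared the same counts. The 187 endogenous probes whose count reached 10 in 6 rats or more, of 420, were tested with edgeR's quasi-likelihood test on TMM-scaled counts, with Benjamini-Hochberg adjustment over all of them, and a member below the filter was read from the fit on all 420 probes. The SE was worked out from the fold change and its p. CPM used the TMM effective size over tested probes, and log2 CPM a prior count of 2. Exact permutation tests were two-sided over 924 assignments (smallest p 0.00216), and correlations used 100000 resamples. The background came from the 4 exogenous probes without a spike-in, since the codeset's negative controls were not used here. Total counts of 5163 to 30301 limit the precision.

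Alternatives were another scaling, filter, tool or background, the replicate block, age, and leaving out rats. Every member was named, with the 5 other probes most alike to each tested member and a list of 11 epithelial miRNAs. The members and lists were chosen with earlier results of these data known. Fits were made in R (4.3.3) with edgeR (4.0.16), DESeq2 (1.42.0) and limma (3.58.1), and permutations, correlations and figures in Python (3.11.15) with scipy (1.17.1), pandas (2.3.3) and numpy (2.4.6).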

Additional observations from a re-analysis of the deposited data

Results flagged for a closer look

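miR-429 was 3600 CPM in pregnant replicate 5, far from the other 5 pregnant rats: the gap to the nearest of them was 0.635 of the range of the group. It was the 1 such case among 28 groups of 6 rats examined, and chance alone gives about 1 in 20.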

How the results depend on the processing

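No probe passed an adjusted p of 0.05 under any alternative run. The number under an unadjusted 0.05 was 11 with edgeR as reported. With edgeR it was 4 with total RNA normalisers, 20 with no filter on low counts, 3 with a minimum of 20 counts and 3 with the replicate block. It was 7 to 19 when 1 rat was left out of the edgeR fit, lowest without control replicate 5 or pregnant replicate 6 and highest without pregnant replicate 2. It was 6 with limma-voom, 6 with the exact permutation test and 1 with the methods' t-test. The last was Welch's t-test over the 187 filtered probes, on counts scaled by 38 total RNA normalisers chosen here. It is not a workflow of the paper, so the 1 is not the paper's result. The replicate numbers share only a number: the deviations of same-numbered rats correlated from -0.34 to 0.27, and 1 of 6 matched its own number best. With the block the log2 fold change was 0.74 for miR-203 and 0.39 for miR-200a.

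With total count in place of TMM, the log2 fold change turned to -0.37 for miR-141, -0.093 for miR-200a and -0.39 for miR-429, the difference in mean log2 CPM of miR-200a to -0.081, and r of miR-200a with miR-203 to -0.47. With total RNA normalisers it turned to -0.0037 for miR-141 and -0.022 for miR-429. It was -0.053 for miR-141 as a difference in mean log2 CPM and -0.013 for miR-429 by the methods' t-test. Subtraction of the background gave 0.37 for miR-200b and -0.042 for miR-205. Without the 2 pregnant rats of the highest totals, chosen after seeing the data, it was -0.45 for miR-141 and -0.17 for miR-429. The difference of miR-200a was 0.43 in unscaled log2 counts (exact permutation p = 0.165). The cause of these changes was not tested.

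With 1 rat left out, the difference in mean log2 CPM of miR-203 was 0.37 (without pregnant replicate 6) to 0.98 (without pregnant replicate 2, exact permutation p = 0.0498). The log2 fold change was -0.18 to 0.34 for miR-141 and -0.078 to 0.21 for miR-429, both lowest without pregnant replicate 5, and r of miR-141 with miR-200c was -0.28 (without pregnant replicate 4) to 0.38. For miR-200a it was 0.27 without pregnant replicate 5 (edgeR unadjusted p = 0.210). With the 4 mRNA probes as background miR-200a was above mean + 2 SD in 4 rats. The values of miR-203 and miR-200c kept their sign in every alternative run.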
